A study of Mus musculus with 4 samples.

Results

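The SLC26 genes encode a family of membrane proteins that move chloride, bicarbonate, sulfate, oxalate or iodide across cell membranes, most of them as exchangers and some as channels. In the testis the family is known mainly through Slc26a8 (testis anion transporter 1), which is made in male germ cells, sits at the annulus of the sperm tail and is needed for sperm motility. Slc26a9, which works largely as a chloride channel, is known from stomach and airway epithelium. Members were the rows of the deposited count table whose gene symbol was one of 9 SLC26 symbols, and 7 of them matched among 25265 genes: Slc26a2, Slc26a6, Slc26a7, Slc26a8, Slc26a9, Slc26a10 and Slc26a11. Slc26a1 and Slc26a3 matched no row and are not analysed here.

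The study compared whole testes of C57BL/6 mice at postnatal day 56 with the genotype control (2 libraries) and with the genotype Ythdf2-vKO (2 libraries). Its title describes the mutation as germ cell-specific, and YTHDF2 is a reader of N6-methyladenosine in RNA that promotes decay of the bound transcripts. The driver of the deletion, the deleted segment and whether each library came from its own animal are not given in the sources used here, so p-values measure the spread between these libraries, which may be technical. Total counts were between 24862518 and 29561182 per library. Ythdf2 itself was counted 1193 and 1604 times in control, against 1774 and 1807 times in those labelled Ythdf2-vKO. It is thus not lower where the label says it was deleted, and higher or lower refers throughout to the labels (vKO relative to control).

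The set was chosen by the counts of Slc26a9, which differed between these genotypes. Its difference is therefore described without a test, and the other members were included by family name. All 7 passed the filter on low counts. Slc26a9 passed it through the libraries labelled vKO, where it was high, and so had to differ. With edgeR's quasi-likelihood test and a Benjamini-Hochberg threshold of 0.05 over the table, 83 of 21132 genes tested (0.393%) were called, 59 of them (0.279%) higher and 24 (0.114%) lower in vKO. This split depended on scaling and was 181 higher and 37 lower with library totals alone, and 76 and 66 with an offset for transcript GC content. Of the 6 members other than Slc26a9, 0 were called by edgeR and 2 had an unadjusted p under 0.05, against 14.1% of all genes tested.

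The stretches of DNA before the start sites of Slc26a9 and Slc26a10 are shown because these 2 members had the largest differences between the genotypes. They are from RefSeq (build GRCm38.p6), where the promoter table used here matched 4 of the 7 members, and run 5′ to 3′ on the strand of the gene. Capitals mark TATAAA and CCAAT, searched on both strands in the 250 bases before the start. The Slc26a9 stretch is chr1:131743772-131744021 (plus strand), and the Slc26a10 stretch is chr10:127180646-127180832 (minus strand), ended where the first exon of the GENCODE M21 annotation begins.
Slc26a9: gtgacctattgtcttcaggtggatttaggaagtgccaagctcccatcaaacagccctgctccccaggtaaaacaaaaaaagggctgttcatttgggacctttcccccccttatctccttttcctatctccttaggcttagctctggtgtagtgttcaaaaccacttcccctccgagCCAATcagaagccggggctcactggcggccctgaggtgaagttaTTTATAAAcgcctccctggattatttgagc
Slc26a10: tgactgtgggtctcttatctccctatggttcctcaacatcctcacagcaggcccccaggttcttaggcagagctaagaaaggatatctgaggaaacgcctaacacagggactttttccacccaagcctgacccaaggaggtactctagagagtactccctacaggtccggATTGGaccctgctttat

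TATAAA was found in Slc26a9 from 28 to 23 bases before the start, and its reverse, overlapping it, from 30 to 25 bases. CCAAT lay from 74 to 70 bases before it. In Slc26a10 the reverse of CCAAT lay from 80 to 76 bases before the RefSeq start, and the reverse of TATAAA from 68 to 63 bases before it, across the beginning of the M21 exon. Of 32851 promoter windows of this length, 12.4% held TATAAA and 33.8% held CCAAT on either strand. CCAAT was also in the windows of Slc26a6 and Slc26a8, and TATAAA was not. The letters GGGCGG, present in 32.7% of windows, were found in Slc26a6 alone among the 4. M21 exons cover all 250 bases of the Slc26a6 window and 246 bases of the Slc26a8 window. The matches in these windows thus lie within M21 exons and not before them. TGACGTCA, present in 1.55%, was found in none of them. A match is a description of the letters and not of a bound factor.

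Levels were set in order as CPM (read counts relative to library size, after TMM, edgeR's correction for library composition) per kilobase of the longest M21 transcript. Slc26a8 stood far above the others, with 68.7 and 67.5 CPM per kilobase in control, against 56.3 and 59.5 in those labelled vKO. It held between 79.6% and 87.0% of the summed level of the 7 members in a library. Slc26a2, a sulfate transporter known for its role in cartilage, came next with 4.13 ± 0.437 CPM per kilobase (SD over 4 libraries). Slc26a8 was 13.7 to 19.2 times higher per kilobase than Slc26a2 in the same library, and the ranges of this pair did not overlap.

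The middle of the order was crowded. Slc26a11, a sulfate and chloride transporter linked to lysosomes, had 2.73 ± 0.848 CPM per kilobase, and Slc26a7, an anion transporter of kidney, stomach and thyroid, had 2.61 ± 0.174 (SD over 4 libraries each). Their order turned with genotype: Slc26a7 was the higher of the pair in both control libraries (2.36 and 2.75 against 2.18 and 1.88) and Slc26a11 in both labelled vKO (3.68 and 3.21 against 2.70 and 2.61). They also changed places in the order of means in 4 of 7 alternatives, namely with the union of exons or the coding length, and without either library labelled vKO. Slc26a10 followed with 1.98 ± 0.806 and Slc26a6, a chloride, bicarbonate and oxalate exchanger, with 0.987 ± 0.224. Each neighbouring pair from Slc26a2 down to Slc26a6 had overlapping ranges over the 4 libraries, which pool both genotypes. Within a library, Slc26a2 was 1.12 to 2.08 times Slc26a11 and Slc26a10 was 1.32 to 2.78 times Slc26a6, each in 4 of 4 libraries. Slc26a9 was lowest, at 0.211 ± 0.229, and its range did not reach that of Slc26a6. Slc26a4 (pendrin), which is no member here, had 8 and 6 counts in control, against 7 and 4 in those labelled vKO and did not pass the filter on low counts.

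**Figure D1:**
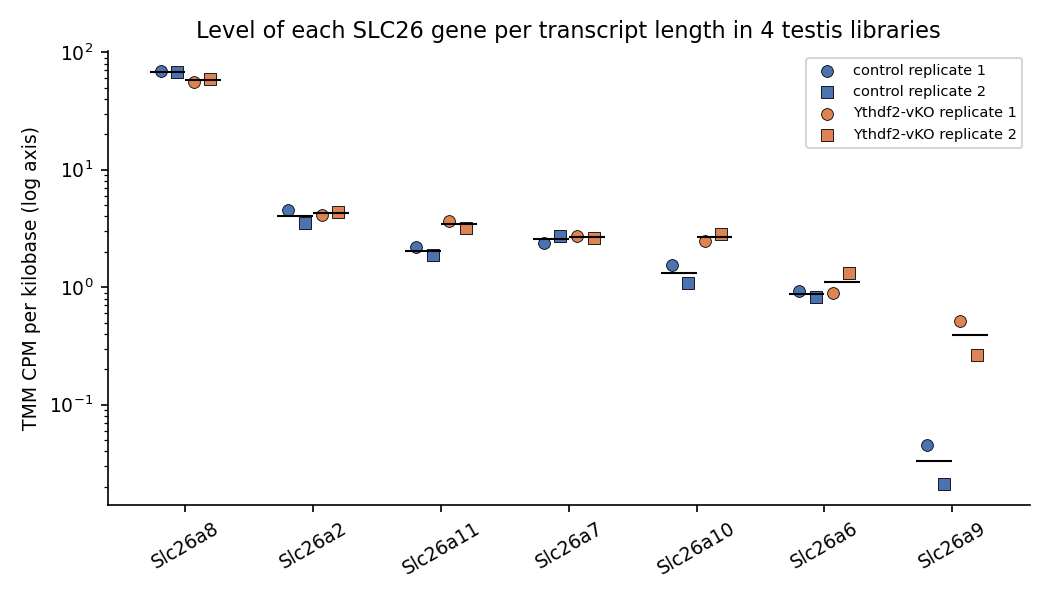
TMM CPM per kilobase of the longest transcript (log axis) for the 7 SLC26 genes, with 1 point per library and a line at each group's mean. Slc26a8 sits between 56.3 and 68.7 in every library, Slc26a9 is the lowest member, and its libraries labelled vKO lie above its control libraries.

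Slc26a9 (ENSMUSG00000042268) lies on the plus strand of chromosome 1, from 131744022 to 131771504 in GRCm38. It had 5 and 3 counts in control, against 65 and 34 in those labelled vKO. In CPM this was 0.214 and 0.100 in control, against 2.43 and 1.26 in those labelled vKO. The groups did not overlap, and both control libraries held few reads. The ratio of the summed counts, scaled for library size, was 12.3, and the fitted log2 fold change was 3.56 (SE 0.60). Both describe the counts by which the gene was chosen. The libraries labelled vKO also differed from each other, with replicate 1 at 1.93 times the CPM of replicate 2. The 95% exact Clopper-Pearson interval of this replicate ratio was 1.25 to 3.01, for counting error only. Leaving out replicate 1 of the libraries labelled vKO lowered the log2 fold change to 3.01, and leaving out control replicate 1 raised it to 4.14. Even where it was high, Slc26a9 stayed a minor member: per kilobase Slc26a8 was 109.8 and 223.8 times higher in the libraries labelled vKO, against 1522 and 3195 times in control.

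The transcript of Slc26a9 has a GC content of 51.0%, against a median of 48.9% over all genes tested, and with an offset for GC content its log2 fold change was 3.54. No M21 gene overlaps it. Its nearest tested neighbours had no such difference. Rab7b, a small GTPase 28583 bases before it, had a log2 fold change of 0.04 (SE 0.58). Pm20d1, an enzyme of N-acyl amino acid synthesis 25877 bases after it, had 0.09 (SE 0.51). Both neighbours had wide errors, with Rab7b at 9 and 55 counts in the control libraries.

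Slc26a10 (ENSMUSG00000040441) is annotated as protein-coding in the mouse, while its human counterpart is regarded as a pseudogene. Its GRCm38 position is 127171393 to 127180645 of chromosome 10, minus strand. Its CPM were 5.56 and 3.90 in control, against 8.93 and 10.2 in those labelled vKO, from 130, 117, 239 and 274 counts. The groups did not overlap, and the control libraries differed from each other by 1.43 times (95% interval 1.10 to 1.85, counting error only). The log2 fold change was 1.02 (SE 0.23), and it missed the threshold in edgeR's quasi-likelihood test with an adjusted p of 0.0778. The authors' deposited table gave the same gene an adjusted p of 0.0307, past the threshold, where 1.32% of 16448 genes with an adjusted p were called and 0.833% were called higher. Its log2 fold change was 0.78 without control replicate 2 and 1.28 without control replicate 1. The call therefore depended on the test, and the size of the difference on single libraries. The transcript's GC content was 56.5%, and with the GC offset the log2 fold change was 0.86.

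Slc26a10 overlaps a neighbouring gene. Its exons share 715 of their 4027 bases with exons of B4galnt1, a ganglioside-synthesis enzyme gene on the opposite strand. The libraries were directional, but whether strand was used in counting is not given in the sources used here. How reads of the overlapping exons were assigned is therefore not known. B4galnt1 had 28.1 and 26.1 CPM in control, against 40.6 and 36.5 in those labelled vKO, with no overlap of groups and a log2 fold change of 0.51 (SE 0.14, edgeR adjusted p 0.138). Arhgef25, which lies 1880 bases before the start of Slc26a10, had a log2 fold change of 0.53 (SE 0.14, edgeR adjusted p 0.135). Os9, the next tested gene on the other side, had 0.12 (SE 0.13). Thus 2 adjoining genes leaned the same way as Slc26a10 and by less, and neither passed the test.

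Slc26a11 (ENSMUSG00000039908, plus strand of chromosome 11, 119355557 to 119381079) had 5.99 and 5.17 CPM in control, against 10.1 and 8.82 in those labelled vKO. The groups did not overlap. The log2 fold change was 0.77 (SE 0.20), and it did not pass the threshold in edgeR's quasi-likelihood test, with an adjusted p of 0.129. Its log2 fold change was 0.87 without control replicate 1 and 0.66 without replicate 1 of those labelled vKO. The authors' deposited table gave an adjusted p of 0.126. Its neighbour Sgsh, a lysosomal enzyme gene 21 bases before its start, had 382 and 330 counts in control, against 358 and 382 in those labelled vKO, a log2 fold change of 0.01 (SE 0.20).

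**Figure D2:**
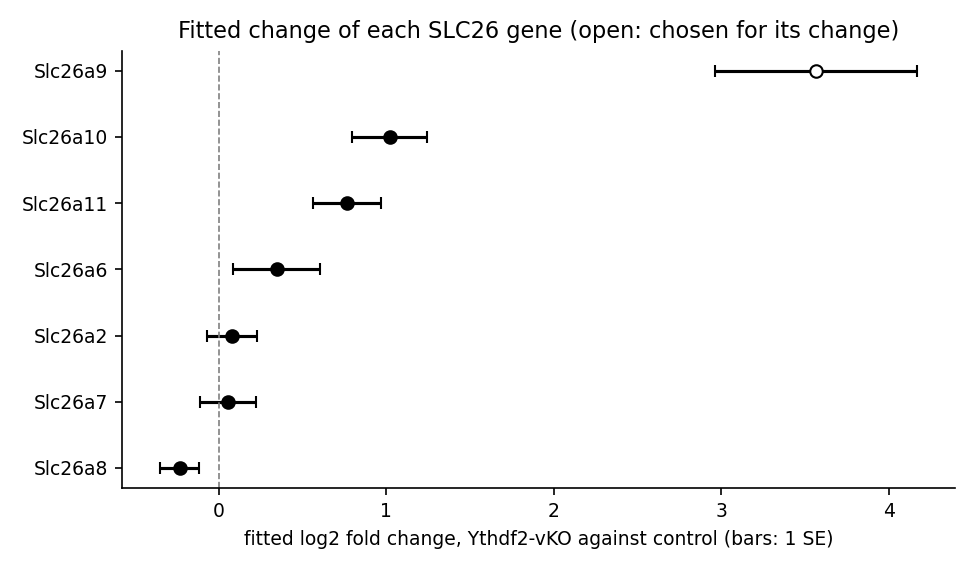
Fitted log2 fold change of each SLC26 gene in the libraries labelled vKO against control, with bars of 1 SE. Slc26a9 (open symbol, chosen for its difference) is at 3.56, Slc26a10 and Slc26a11 are at 1.02 and 0.77, and Slc26a8 is the only member below 0.

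**Figure D3:**
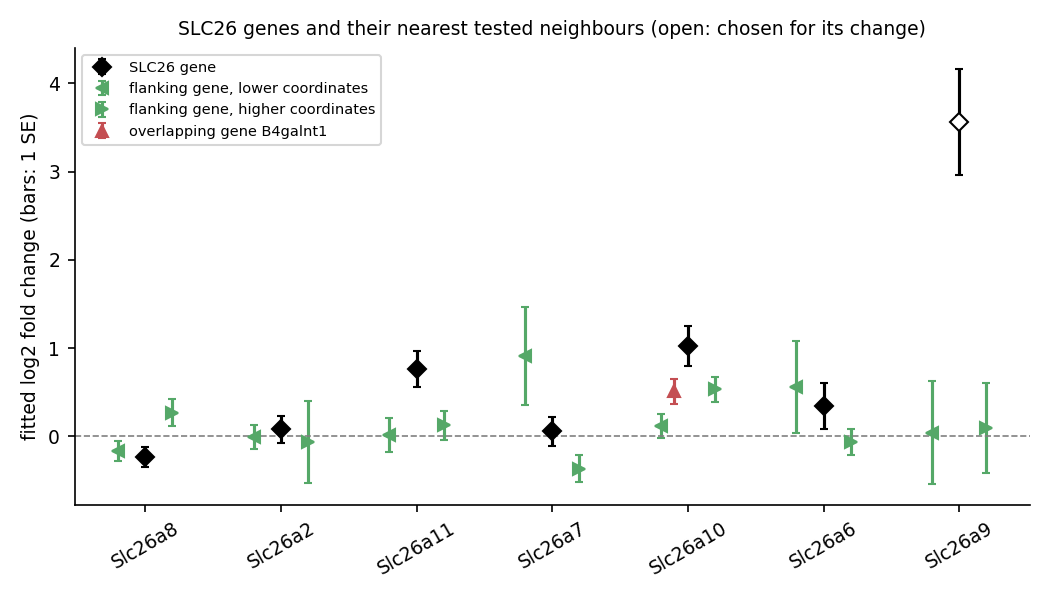
Fitted log2 fold change (bars, 1 SE) of each SLC26 gene and of the nearest tested gene on either side, with B4galnt1, which overlaps Slc26a10. The neighbours of Slc26a9 lie near 0 with wide bars, and 2 genes beside Slc26a10 lie at 0.51 and 0.53.

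Slc26a8 (ENSMUSG00000036196, minus strand of chromosome 17, 28637783 to 28690233), the member counted most, was lower in both libraries labelled vKO. It had 252.1 and 247.6 CPM in control, against 206.5 and 218.5 in those labelled vKO, from 5892, 7423, 5528 and 5894 counts. The groups did not overlap, and the fitted log2 fold change was -0.23 (SE 0.12, 95% interval -0.49 to 0.02). It did not pass the threshold in edgeR's quasi-likelihood test, with an adjusted p of 0.397. The log2 fold change stayed between -0.28 and -0.17 over 14 alternative fits. In whole testis, fewer cells of a type and less RNA per cell cannot be told apart.

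Slc26a2, Slc26a6 and Slc26a7 had overlapping groups. Slc26a2 (chromosome 18) had 35.3 and 27.5 CPM in control, against 32.2 and 34.1 in those labelled vKO, with a log2 fold change of 0.08 (SE 0.15, 95% interval -0.25 to 0.41). Without control replicate 2 the sign turned, to -0.090. Slc26a7 (chromosome 4) had 12.2 and 14.2 CPM in control, against 14.0 and 13.5 in those labelled vKO, with a log2 fold change of 0.05 (SE 0.17, 95% interval -0.31 to 0.42), and of -0.056 without control replicate 1. Slc26a6 (chromosome 9) had 4.02 and 3.57 CPM in control, against 3.89 and 5.75 in those labelled vKO. Its log2 fold change of 0.35 (SE 0.26) rested on replicate 2 of the libraries labelled vKO and was 0.03 without it. By edgeR's quasi-likelihood test the adjusted p was 0.872 for Slc26a2, 0.929 for Slc26a7 and 0.609 for Slc26a6. Of the 6 members other than Slc26a9, 3 had groups that did not overlap, 2 of them higher in vKO. Of all genes tested, 45.3% had groups that did not overlap, and 22.7% were of this kind and higher in vKO.

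The genes whose pattern over the 4 libraries was most like that of Slc26a9 were sought among 17826 genes with a mean of at least 1 CPM. The measure was the Euclidean distance between log2 CPM deviations from each gene's own mean (prior count 2). The 5 nearest were Serpina3n (distance 1.004), Ryr2 (1.01), Ptprn2 (1.25), Ripor3 (1.35) and Lrg1 (1.37). All 5 were low in both control libraries and high in both libraries labelled vKO, which is the pattern the search was set to find. Their log2 fold changes ran from 1.94 for Ptprn2 to 2.83 for Ryr2. None matched closely. Serpina3n, for example, had 0.727 and 1.001 CPM in control, against 6.20 and 4.82 in those labelled vKO. The 5 nearest to Slc26a8 were far closer to it: Psma6 (distance 0.00484), Styxl1 (0.00632), Iqcf6 (0.00773), Cenpn (0.0108) and Fhl4 (0.0125). Psma6, a proteasome subunit gene, had 340.1 and 332.7 CPM in control, against 277.6 and 293.7 in those labelled vKO. Slc26a8 had far more counts than Slc26a9 and a far smaller difference, so distances are not comparable between the searches. They rest on 4 libraries and are a description.

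Other genes of anion transport were taken from 6 lists with 63 genes tested. Of the 63, 1 passed the test, against 0.393% of all genes tested. SLC4 proteins are the other large family of bicarbonate transporters. In that list 1 of 8 genes tested was called higher and 0 lower, against 0.279% and 0.114% of all genes tested. Of the 8, 2 had an unadjusted p under 0.05, against 14.1% of all genes tested. The median log2 fold change was 0.37, against 0.003 over all genes tested. The called gene was Slc4a3, a chloride-bicarbonate exchanger, which rose from 17.8 and 14.3 CPM in control to 27.9 and 29.7 in the libraries labelled vKO. The fitted difference was 0.85 on the log2 scale (SE 0.16) and passed the threshold (edgeR adjusted p 0.0414), and the call was lost without either of the libraries labelled vKO. The SLC4 members with the highest level per kilobase were Slc4a2, an anion exchanger (11.9 CPM per kilobase, log2 fold change 0.25, SE 0.14), and Slc4a7, a sodium bicarbonate cotransporter (9.21 CPM per kilobase, log2 fold change -0.15, SE 0.15).

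Of 13 partners and regulators of SLC26 proteins, 0 were called by edgeR and 1 had an unadjusted p under 0.05, against 2984 of all 21132 genes (14.1%). Their median log2 fold change was -0.01. The gene of low unadjusted p was Wnk4, named after its values were seen. Wnk4 had 18.3 and 12.8 CPM in control, against 23.0 and 28.4 in those labelled vKO. Its log2 fold change was 0.73 (SE 0.19, edgeR adjusted p 0.126), and it passed with library totals alone and with the replicate block. The most abundant per kilobase were Pdzk1, a PDZ scaffold gene (184.0 CPM per kilobase, log2 fold change -0.19, SE 0.12), and Stk39, the kinase SPAK (99.98 CPM per kilobase, log2 fold change -0.02, SE 0.14). Cftr and Racgap1, named here as known partners of SLC26A8 after their values were seen, had overlapping groups. Cftr, the cystic fibrosis chloride channel, had 40.8 and 31.2 CPM in control, against 37.5 and 33.7 in those labelled vKO, a log2 fold change of -0.01 (SE 0.16, 95% interval -0.35 to 0.32). Racgap1 had a log2 fold change of 0.12 (SE 0.13, 95% interval -0.17 to 0.40).

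In sperm, bicarbonate entry activates the soluble adenylyl cyclase and so protein kinase A. Of 11 genes of this pathway, 0 were called by edgeR, 4 had an unadjusted p under 0.05 (14.1% over all genes tested), and the median log2 fold change was -0.03. The most abundant were Akap4 and Akap3, scaffold genes of the fibrous sheath, with 545.2 and 306.9 CPM per kilobase and log2 fold changes of -0.32 (SE 0.12) and -0.03 (SE 0.14). Among those of low unadjusted p, named after their values were seen, Slc9c1 (the sperm sodium-proton exchanger) had 196.6 and 202.5 CPM in control, against 133.1 and 143.6 in those labelled vKO, a log2 fold change of -0.53 (SE 0.12, edgeR adjusted p 0.0856). Adcy10 (the soluble cyclase) had 437.2 and 419.2 CPM in control, against 328.8 and 322.7 in those labelled vKO, a log2 fold change of -0.39 (SE 0.12, edgeR adjusted p 0.162). Neither gene passed this edgeR test, and the outcome depended on the fit. Slc9c1 passed with DESeq2, another count test, and with replicate number as a block, with or without the GC offset. Adcy10 passed with the block alone. Neither passed in the other fits with all 4 libraries.

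Carbonic anhydrases, which interconvert carbon dioxide and bicarbonate, had 0 of 10 genes called by edgeR, 1 with an unadjusted p under 0.05 (14.1% over all genes tested, here and for the next lists) and a median log2 fold change of 0.19. Car2 was the most abundant (97.7 CPM per kilobase, log2 fold change -0.25, SE 0.13), followed by Car7 (2.58 CPM per kilobase, log2 fold change 0.20, SE 0.26). Genes of sulfate uptake and activation had 0 of 8 called by edgeR, 2 with an unadjusted p under 0.05 and a median of 0.29, with Impad1, a phosphatase of sulfate metabolism, at -0.06 (SE 0.14) and Slc35b2, a Golgi carrier of activated sulfate, at 0.48 (SE 0.19). Chloride channel genes had 0 of 13 called by edgeR, 3 with an unadjusted p under 0.05 and a median of 0.20, with Best1 at 0.04 (SE 0.12) and Clic1 at 0.35 (SE 0.16).

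**Figure D4:**
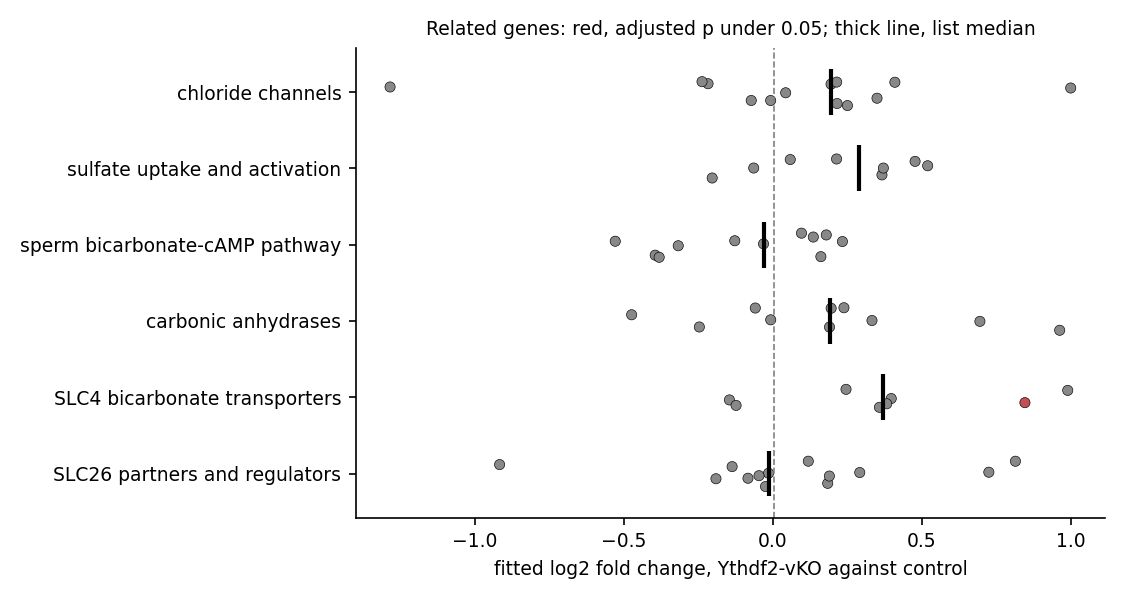
Fitted log2 fold change of the 63 genes tested in 6 lists of related genes, with 1 point per gene, a thick line at each list's median and a dashed line at the median of all genes tested. Slc4a3 (red, 0.85) is the only one past the threshold.

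In 12 lists of cell type markers, 1 gene was called by edgeR (Wt1, 1 of 14 Sertoli cell genes tested, named after its values were seen). Over all genes tested, 0.393% were called. Some lists leaned one way. Of 14 Sertoli cell genes, all had a log2 fold change above 0, with a median of 0.39, and 8 had an unadjusted p under 0.05, against 14.1% of all genes tested. Their summed level was 1192 and 1251 CPM in control, against 1679 and 1490 in those labelled vKO. Of 14 spermatocyte genes, 12 were below 0, with a median of -0.15, and of 12 elongating spermatid genes 11 were below 0, with a median of -0.24, and 0 in either list were called by edgeR (2 and 5 had an unadjusted p under 0.05). Spermatogonia had 12 of 13 genes above 0 (median 0.32), Leydig cells 7 of 8 (median 0.38) and erythrocytes 4 of 4 (median 0.76), with 0 called by edgeR and 4, 4 and 3 at an unadjusted p under 0.05. Round spermatid genes had a median of 0.001, with 0 of 11 at an unadjusted p under 0.05. Macrophage genes had a median of 0.09, peritubular myoid cell genes of -0.05 and endothelial cell genes of 0.37, with 0, 0 and 1 of 7 at an unadjusted p under 0.05. For epithelium of the rete testis and efferent ducts, 8 of 11 genes were tested, with a median of -0.10, 2 above 0 and 0 called by edgeR (1 at an unadjusted p under 0.05). The summed level of the 10 genes of this list with a row was 164.9 and 136.5 CPM in control, against 158.8 and 150.3 in those labelled vKO. This sum overlapped between the groups. Of 8 epididymis genes, 6 matched no row and Crisp1 had at most 9 counts in a library. Rnase10, the 1 gene of this list tested, had a log2 fold change of -0.48. It had an unadjusted p under 0.05 and was not called by edgeR. The summed level of Rnase10 and Crisp1 was 8.17 and 7.74 CPM in control, against 5.68 and 6.04 in those labelled vKO. The part of these cell types in the values of Slc26a8, Slc26a9, Slc26a10 and Slc26a11 was not tested.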

How the data were processed

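Testis RNA was depleted of ribosomal RNA and made into directional libraries, per the labels' protocols. Reads were aligned with HISAT2 2.1.0 and counted with HTSeq 0.6.1p1, per the submitters' processing notes; build, annotation and strand setting are not given in the sources used here. The authors deposited raw read counts per gene. They also deposited a mean normalized count (a signal), a log2 fold change, its standard error, a test statistic (a score), and a p-value and adjusted p-value, per the file headers. Recomputing the deposited mean from the counts gave a largest relative difference of 4.9e-10. Each gene in the table had at least 10 counts in total.

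Counts were fitted with edgeR 4.0.16 in R 4.3.3 (TMM, filterByExpr, robust quasi-likelihood fit of genotype, prior count 0.125, Benjamini-Hochberg adjustment over all genes tested, threshold 0.05), and checked on simulated data. A standard error is the log2 fold change over the square root of F. DESeq2 1.42.0, other scalings and filters, a GC offset, the replicate block and leaving out each library were alternatives. Lengths, GC content and coordinates came from GENCODE M21 (GRCm38) by gene identifier, found for 25241 genes, and 26 symbols turned into dates were restored. The members and lists were chosen with earlier results of these data known. Named genes were the members, Ythdf2, Slc26a4, the called and the 2 most abundant genes of each list, and the 5 genes most like Slc26a9 and Slc26a8. Replicates of a group differed beyond sampling noise (chi-square per degree of freedom 17.8 in control and 7.31 in vKO), so none were merged. The labels name no molecular identifiers. Intervals of replicate ratios cover counting error only. Intervals of log2 fold changes come from the quasi-likelihood fit and also include the spread between libraries.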

Additional observations from a re-analysis of the deposited data

How the results depend on the processing

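Slc26a9, on which the set was chosen, is left out of the counts of SLC26 calls given here. Of the 6 other members, 0 were called in the reported edgeR fit (2 at an unadjusted p under 0.05). The number was 0 with at least 10 counts in every library, a filter that leaves Slc26a9 out. It was 1 with library totals alone, 2 with the replicate block, 1 with GC offset plus replicate block and 1 with DESeq2. Slc26a10 was called in each of these last fits, and Slc26a11 with the replicate block. Leaving out a library took the log2 fold change of Slc26a10 from 0.78 to 1.28, and that of Slc26a11 from 0.66 to 0.87. Of the 63 related genes, 1 was called in the reported fit. Their number was 3 with library totals alone, 5 with the replicate block, 3 with GC offset plus replicate block and 3 with DESeq2. Over all genes, 59 higher and 24 lower calls became 181 and 37 with library totals alone, 137 and 80 with DESeq2, 76 and 66 with the GC offset, 627 and 390 with the replicate block and 242 and 272 with both. The log2 fold change of Slc26a9 ran from 3.01 to 4.14 over its 13 alternatives. Leaving out a library took that of Slc26a2 from -0.090 (without control replicate 2) to 0.26, and that of Slc26a7 from -0.056 (without control replicate 1) to 0.17. The mean share of Slc26a8 in the family's level was 83.1%, and 70.9% with coding length in place of the longest transcript. The cause of these shifts was not tested.

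Both groups carry replicate numbers 1 and 2, whose meaning the labels leave unstated. Deviations of same-numbered libraries from their group means correlated at 0.0623 across genes, with 2 pairs, so the block is given only as an alternative. Fits without a library leave 1 in a group, which is assumed to vary like the other group. Slc26a9, with 3 to 65 counts, and Slc26a4, with 4 to 8, are limited by depth.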
